A study of Mus musculus with 7 samples.

Results

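Ramp1, Ramp2, Ramp3 and Calcrl encode the receptors for calcitonin gene-related peptide (CGRP) and adrenomedullin. They were measured in haematopoietic stem cells sorted from mouse fetal liver. The rule took every probe set annotated to 1 of these 4 genes alone, which gave 5 probe sets of 22626 on the array and 4 genes of 12393. Ramp1 was chosen by its lower level in TFIIA nc/nc, and its partner genes were added as subunits of the same receptors. The values of Ramp1 by genotype are therefore a description here and were given no test.

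Calcrl is a G protein-coupled receptor that reaches the cell surface and selects its ligand only together with a RAMP protein, a small partner with a single membrane span. With Ramp1 it forms the CGRP receptor, and with Ramp2 or Ramp3 it forms adrenomedullin receptors. All of them signal mainly through the stimulatory G protein, adenylyl cyclase and cyclic AMP. CGRP comes largely from sensory neurons, and its receptor on blood stem cells has been linked to their mobilisation. Adrenomedullin acting on Calcrl and Ramp2 is required by the endothelium of developing blood and lymphatic vessels.

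The study compared 3 samples of embryos homozygous for a non-cleavable form of TFIIAα-β, a general transcription factor of RNA polymerase II (TFIIA nc/nc), with 4 wild-type samples, all at embryonic day 14.5. The embryos came from crosses of heterozygous parents. Littermates of 1 genotype were combined, with 2, 2 and 4 embryos in TFIIA nc/nc samples 1 to 3, and 1, 1, 4 and 3 in wild-type samples 1 to 4. Cells without the lineage antigens and with Sca-1, c-Kit and CD150 on their surface were sorted in 2 rounds, and the RNA of each sample was read on 1 Affymetrix array. The labels name no promoter or recombinase that would limit the allele to a cell type, and they give no strain. A level is the log2 of the deposited intensity, and its number of arrays limits its precision. Probes differ in their efficiency, so the levels of different probe sets do not rank the amounts of their transcripts.

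The sort was checked against its markers. Kit read 7.501 to 9.06 and Slamf1, which encodes CD150, 6.12 to 6.92 over the 7 arrays. Mecom, another stem cell gene, read only 2.08 to 3.15. Ly6a, which encodes Sca-1, had no probe set naming it alone. Of 5 measured lineage genes (Cd3e, Cd3d, Cd3g, Cd4 and Cd8a) 0 exceeded log2 6 in any array. All 5 are T cell genes, so they do not speak for other lineages, and Ly6g was not measured. Of 9 macrophage genes, 2 exceeded log2 6 in TFIIA nc/nc sample 3, 1 in wild-type sample 2 and 0 in the other arrays. Transcripts of sinusoidal endothelium differed between arrays. The brightest probe set of Lyve1, a hyaluronan receptor of liver sinusoids and lymphatics, read 9.597 and 9.83 in TFIIA nc/nc samples 1 and 2 and 9.73 in wild-type sample 1. It read 3.34 in TFIIA nc/nc sample 3 and 2.91, 3.65 and 2.78 in wild-type samples 2, 3 and 4. The dividing value of log2 6 thus lay between 9.597, the lowest value above it, and 3.65, the highest below it. The class above held 2 TFIIA nc/nc arrays and 1 wild-type array, and the class below held 1 and 3. Cells of another type, their number and their RNA content cannot be told apart in such bulk samples.

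RefSeq promoters of assembly GRCm38.p6 were matched for 3 of the 4 genes, Ramp1, Ramp3 and Calcrl. Those of Ramp1 and Calcrl are shown because these genes gave a signal well above the array median in all 7 arrays, and because TFIIA acts with TBP at the core promoter. Each runs from 250 bases before the annotated start to 50 bases from it. Capitals mark matches to the motifs listed after the sequences. The Ramp1 window is chr1:91179572-91179871 on the plus strand, and the Calcrl window is chr2:84425217-84425516 on the minus strand.
Ramp1: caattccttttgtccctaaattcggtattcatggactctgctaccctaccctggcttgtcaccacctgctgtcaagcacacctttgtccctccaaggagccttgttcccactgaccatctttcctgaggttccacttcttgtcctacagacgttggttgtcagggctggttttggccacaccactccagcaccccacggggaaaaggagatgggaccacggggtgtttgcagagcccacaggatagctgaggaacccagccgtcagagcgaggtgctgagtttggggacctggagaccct
Calcrl: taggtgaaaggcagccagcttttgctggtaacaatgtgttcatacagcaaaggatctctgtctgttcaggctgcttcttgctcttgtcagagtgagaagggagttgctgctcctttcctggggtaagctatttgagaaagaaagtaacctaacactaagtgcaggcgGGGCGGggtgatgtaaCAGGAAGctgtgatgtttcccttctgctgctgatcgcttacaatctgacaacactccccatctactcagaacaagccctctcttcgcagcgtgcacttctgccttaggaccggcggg

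The motifs searched on both strands were TATAAA for TBP, GGGCGG for the GC box, AGATAA and TGATAA for GATA factors, CAGGAAG for ETS factors and TGACGTCA for CREB. None of them overlapped in these windows. Calcrl held 1 GC box that begins 83 bases before the start and 1 ETS match that begins 67 bases before it. Ramp3 held 3 GC boxes, beginning 78, 35 and 24 bases before the start, and Ramp1 held no match to any of the motifs. Among 32851 promoters of the same length 13.6% held TATAAA, 35.7% the GC box, 11.2% and 9.05% the GATA forms, 13.3% the ETS form and 1.79% the CREB form. These are matches of letters in 1 window per gene. The G and C content was 55.7% for Ramp1, 63.7% for Ramp3 and 50.7% for Calcrl, against a median of 52.7% over all promoters.

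Ramp1 (Entrez gene 51801, probe set 1417481_at), the subunit that gives the CGRP receptor its specificity, read 7.98, 7.71 and 8.05 in TFIIA nc/nc samples 1 to 3. It read 8.57, 8.67, 8.84 and 9.001 in wild-type samples 1 to 4. All 3 TFIIA nc/nc arrays lay below every wild-type array, by which the gene was chosen. The means were 7.91 ± 0.18 (SD, n = 3) and 8.77 ± 0.19 (SD, n = 4), a difference of −0.86 (SE 0.16) on the log2 scale or a 1.81-fold lower signal. Groups that do not overlap with TFIIA nc/nc the lower were found for 3.07% of all genes. Ramp1 was a bright probe set in every array, with 88.65% to 94.96% of probe sets below it.

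By Lyve1 class the sizes of the Ramp1 difference were as follows; its direction in any subset of the arrays is fixed by the choice of a gene whose groups do not overlap. Where Lyve1 was above log2 6, the 2 TFIIA nc/nc arrays read 7.98 and 7.71 and the wild-type array 8.57, a difference of −0.73. Where Lyve1 was below it, the TFIIA nc/nc array read 8.05 and the 3 wild-type arrays averaged 8.84 ± 0.16 (SD), a difference of −0.79. With the class as a covariate the difference was −0.76 (SE 0.17). It was −0.75 (SE 0.17) with the mean of the endothelial genes other than Lyve1 as a covariate. Over the classes alone Ramp1 overlapped, at 7.71 to 8.57 in the arrays above and 8.05 to 9.001 in those below, with means that differed by −0.55. These values support nothing beyond the choice of the gene.

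**Figure D1:**
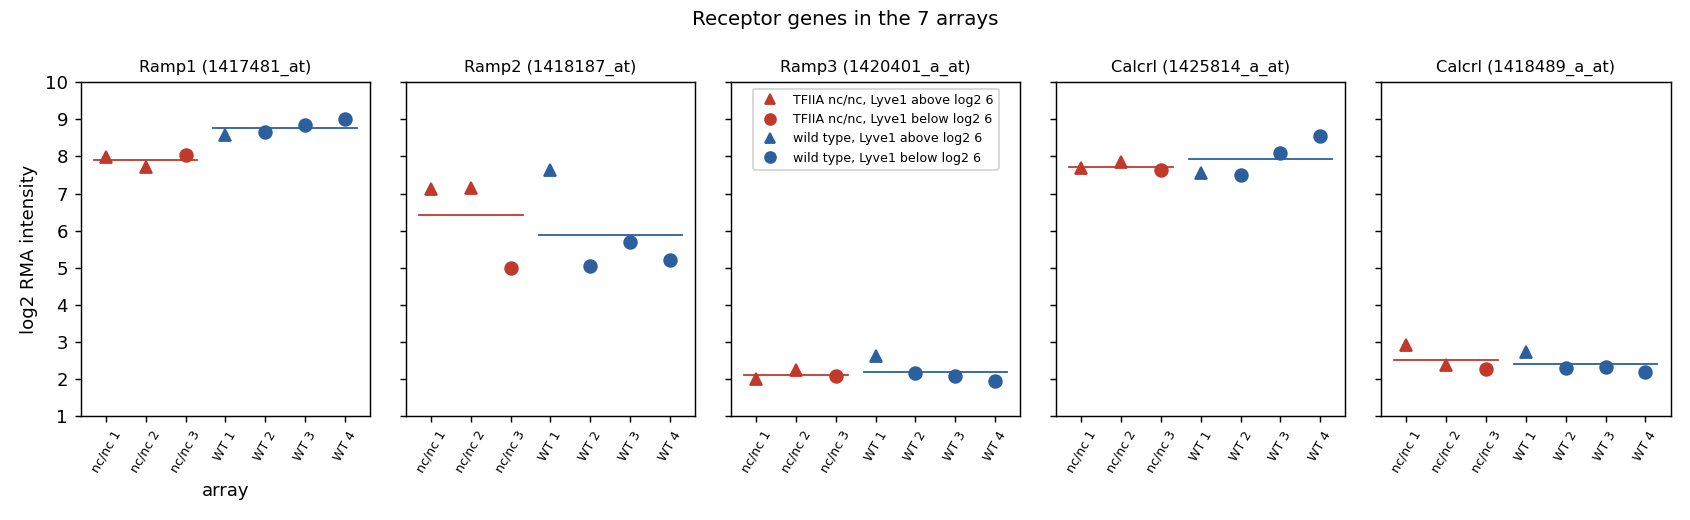
Log2 RMA intensity (y axis) of the 5 probe sets in each of the 7 arrays (x axis), coloured by genotype, with triangles for arrays with Lyve1 above log2 6 and circles for those below; horizontal lines are genotype means. Ramp1 reads 7.71 to 8.05 in TFIIA nc/nc and 8.57 to 9.001 in wild type, Ramp2 is high in the 3 triangles, and Ramp3 and the second Calcrl probe set stay under 3.

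Ramp2 (Entrez gene 54409, probe set 1418187_at), the subunit of the main adrenomedullin receptor of vessels, followed the Lyve1 classes. It read 7.13, 7.15 and 4.996 in TFIIA nc/nc samples 1 to 3 and 7.63, 5.03, 5.70 and 5.21 in wild-type samples 1 to 4. The 3 arrays with Lyve1 above log2 6 were the 3 highest for Ramp2. The class means were 7.30 ± 0.29 (SD, n = 3) and 5.23 ± 0.32 (SD, n = 4), 2.07 higher where Lyve1 was high. The classes are a description, and 5.55% of all genes were likewise higher without overlap in the arrays above. In the arrays below, 62.3% to 71.1% of probe sets lay under Ramp2, so its signal there was not among the dimmest.

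By genotype Ramp2 averaged 6.42 ± 1.24 (SD, n = 3) in TFIIA nc/nc. The wild-type mean was 5.89 ± 1.19 (SD, n = 4). The groups overlapped, and the difference of 0.53 (SE 0.69, 95% interval −1.02 to 2.08) did not pass the threshold of 0.05 (limma, Benjamini-Hochberg adjusted p = 0.95). In that comparison 1 gene of 12393 passed, 0.00807%. It was Galc, a lysosomal galactosidase, lower in TFIIA nc/nc. Leaving out 1 array gave 0.166 to 1.24 for Ramp2, the extremes without TFIIA nc/nc samples 2 and 3, and 0.179 and 1.11 without TFIIA nc/nc sample 1 and wild-type sample 1. Within the classes the direction turned. Above log2 6 for Lyve1 the TFIIA nc/nc arrays averaged 7.14 against 7.63 in the wild-type array, a difference of −0.50. Below it the TFIIA nc/nc array read 4.996 against 5.31 ± 0.35 (SD, n = 3), a difference of −0.32, just under the lowest wild-type array at 5.03. With the class as a covariate the difference was −0.40 (SE 0.20, limma, adjusted p = 0.912), which did not pass either. The sign of the Ramp2 difference in this probe set therefore depended on whether the class was in the fit. Probe sets that Ramp2 shares with Vps25 are given under other observations.

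Calcrl (Entrez gene 54598), the receptor chain that all of these receptors share, did not follow the classes in its brighter probe set, 1425814_a_at. This set read 7.68, 7.86 and 7.64 in TFIIA nc/nc samples 1 to 3 and 7.55, 7.51, 8.09 and 8.54 in wild-type samples 1 to 4. The genotypes overlapped, with wild-type samples 3 and 4 the highest of the 7 and wild-type samples 1 and 2 the lowest. The means were 7.72 ± 0.12 (SD, n = 3) and 7.92 ± 0.49 (SD, n = 4). The difference of −0.20 (SE 0.25, 95% interval −0.76 to 0.36) did not pass (limma, Benjamini-Hochberg adjusted p = 0.947). Without wild-type sample 4 it was 0.00595, and with the samples of pooled embryos only it was −0.59 (SE 0.195; limma, Benjamini-Hochberg adjusted p = 0.317). By Lyve1 class the means were 7.70 ± 0.15 (SD, n = 3) above and 7.95 ± 0.47 (SD, n = 4) below, and the classes overlapped. Between 87.5% and 93.1% of probe sets lay below Calcrl over the 7 arrays.

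The second Calcrl probe set, 1418489_a_at, was dim. It read 2.91, 2.38 and 2.26 in TFIIA nc/nc and 2.73, 2.30, 2.33 and 2.20 in wild type, under the array medians of 3.69 to 3.82. Its genotype groups overlapped and differed by 0.13 (exact 2-sided permutation p = 0.514). Its 3 values in arrays with high Lyve1 lay above the others, at least 2.38 against at most 2.33, a gap that is small beside its range of 0.71.

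Ramp3 (Entrez gene 56089, probe set 1420401_a_at), the other RAMP that makes an adrenomedullin receptor with Calcrl, read near the bottom of every array. Its levels were 2.01, 2.23 and 2.08 in TFIIA nc/nc samples 1 to 3 and 2.60, 2.17, 2.09 and 1.94 in wild-type samples 1 to 4. The genotype groups overlapped, and 10.3% to 28.8% of probe sets lay below it. The means of 2.11 ± 0.12 (SD, n = 3) and 2.20 ± 0.29 (SD, n = 4) differed by −0.09 (SE 0.18, 95% interval −0.50 to 0.31; limma, Benjamini-Hochberg adjusted p = 0.967). A difference in a transcript at this level may not be detectable by the array. Of the 4 receptor genes 3 had a probe set at log2 6 or more on at least 3 arrays, Ramp2 through the arrays with high Lyve1 alone. Of all 12393 genes, 4137 met the same filter.

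Lists of cell type genes are set beside these values, and their mean levels do not measure the cell composition of a sample. The mean level of 20 endothelial genes was 6.50 to 6.98 in the 3 arrays with Lyve1 above log2 6 and 3.83 to 4.12 in the other 4, and 17 of the 20 were higher without overlap in the former, beside 5.55% of all genes. Lyve1, which defines the classes, is 1 of the 17 and enters the mean. Some genes of the list read above log2 6 in all 7 arrays, which was not taken as a sign of endothelial cells. Egfl7, a factor secreted by endothelium, read 8.28 to 8.49 in the arrays with high Lyve1 and 7.96 to 8.25 in the others. Emcn, a sialomucin of venous endothelium, overlapped, at 6.47 to 6.65 against 6.12 to 7.33. Cdh5, the cadherin of endothelial junctions, read 6.53 to 6.83 against 2.55 to 3.31, and Stab2, a scavenger receptor of sinusoids, 6.67 to 7.65 against 2.23 to 3.03. By genotype the endothelial mean was 3.99 to 6.98 in TFIIA nc/nc and 3.83 to 6.77 in wild type, and it did not separate the groups (exact 2-sided permutation p = 0.314). The mean of 9 stem cell genes was 6.61 to 6.80 in the arrays with high Lyve1 and 6.97 to 7.19 in the others. Kit, Procr, Hlf and Mycn were lower without overlap in the arrays with high Lyve1. Slamf1, Mecom, Gata2, Gfi1b and Meis1 overlapped, so the mean does not stand for every gene of the list. By genotype the stem cell mean was 6.61 to 6.97 in TFIIA nc/nc and 6.80 to 7.19 in wild type (exact 2-sided permutation p = 0.114). Ramp1 and the stem cell mean were thus both low in TFIIA nc/nc samples 1 and 2. The stem cell mean was lower in wild-type sample 1 than in TFIIA nc/nc sample 3, at 6.80 against 6.97. Ramp1 was higher there, at 8.57 against 8.05. The part of the stem cell genes in the Ramp1 values was not tested.

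The mean of 9 macrophage genes was 3.50 to 5.47 in TFIIA nc/nc and 3.18 to 4.55 in wild type. That of 7 hepatic genes was 3.40 to 5.21 and 3.06 to 4.23. The mean of 5 megakaryocyte genes was 4.76 to 4.89 and 4.27 to 5.16, and that of 6 stromal genes 3.09 to 3.83 and 2.78 to 3.69. The groups overlapped for each of these lists (exact 2-sided permutation p = 0.4, 0.2, 0.514 and 0.657). The hepatic mean also moved with the classes, at 4.23 to 5.21 in the arrays with high Lyve1 and 3.06 to 3.50 in the others. Of the 7 hepatic genes, 4 were higher without overlap in the arrays with high Lyve1, beside 5.55% of all genes. Ttr and Ahsg overlapped, and Krt18 was lower there without overlap, at 5.49 to 5.81 against 5.98 to 6.57. The part of the hepatic genes in the Ramp2 values was not tested.

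**Figure D2:**
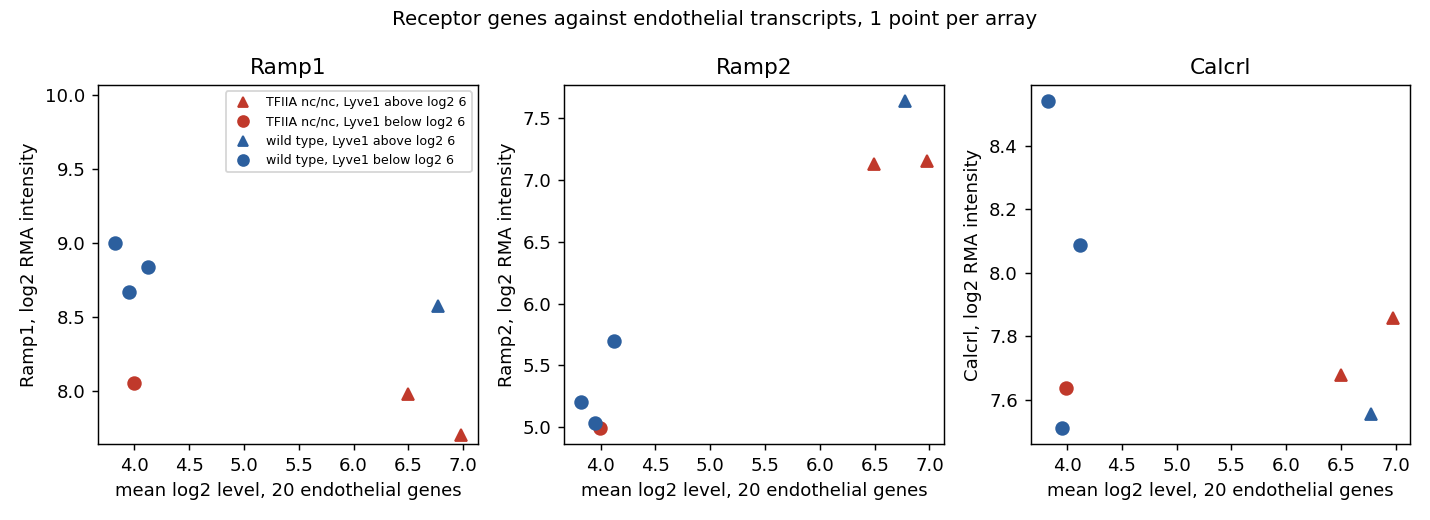
Log2 RMA intensity of Ramp1, Ramp2 and Calcrl (y axes, brightest probe sets, separate scales) against the mean log2 level of 20 endothelial genes (x axes), with 1 point per array, coloured by genotype and shaped by Lyve1 class. The arrays form 2 clusters on the x axis, at 3.83 to 4.12 and 6.50 to 6.98. Ramp2 is high in the second, at 7.13 to 7.63, while Ramp1 and Calcrl overlap between them.

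The genes whose pattern over the 7 arrays was most like each receptor gene were found by Pearson correlation among 2727 other genes with a range of at least 1. These correlations describe 7 points that share genotype and class, and many genes compete for the first places. A gene found in this way repeats the pattern of its receptor gene by selection, so a shared split of the arrays is no separate result. For Ramp1 they were Fam181b (r = 0.967), Ldhb, a lactate dehydrogenase subunit (0.966), Slc25a23, a mitochondrial nucleotide carrier (0.963), Plac8 (0.953) and Gm2a, the activator of ganglioside breakdown (0.949). In all 5 the TFIIA nc/nc arrays lay below the wild-type arrays, as in Ramp1, beside 3.07% of all genes. Plac8, for example, read 7.42, 7.39 and 7.26 against 8.25, 8.37, 8.32 and 8.67.

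For Ramp2 the nearest genes were S100a16, a calcium-binding protein (0.990), the nuclear receptor Nr2f1 (0.987), Degs1, a desaturase of ceramide synthesis (0.986), Lama4, a laminin chain of vessel basement membranes (0.984), and the LIM protein Ajuba (0.983). In all 5 the 3 arrays with high Lyve1 lay above the other 4, as in Ramp2, beside 5.55% of all genes. S100a16 read 6.97, 7.50 and 7.67 in those arrays and 4.47 to 5.18 in the others. For Calcrl they were Pnrc2 (0.971), Mlec, a lectin of the endoplasmic reticulum (0.970), the flippase subunit Tmem30a (0.960), the protease inhibitor Serpinb1a (0.953) and Tmod3, which caps actin filaments (0.950). All 5 were highest in wild-type sample 4, where Pnrc2 read 8.93 against 7.76 to 8.44 elsewhere, and in none of them did the genotypes or the Lyve1 classes separate. The 3 receptor genes had no neighbour in common among these 15. Their patterns differ and each list is short, so this is no result about the receptor genes.

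**Figure D3:**
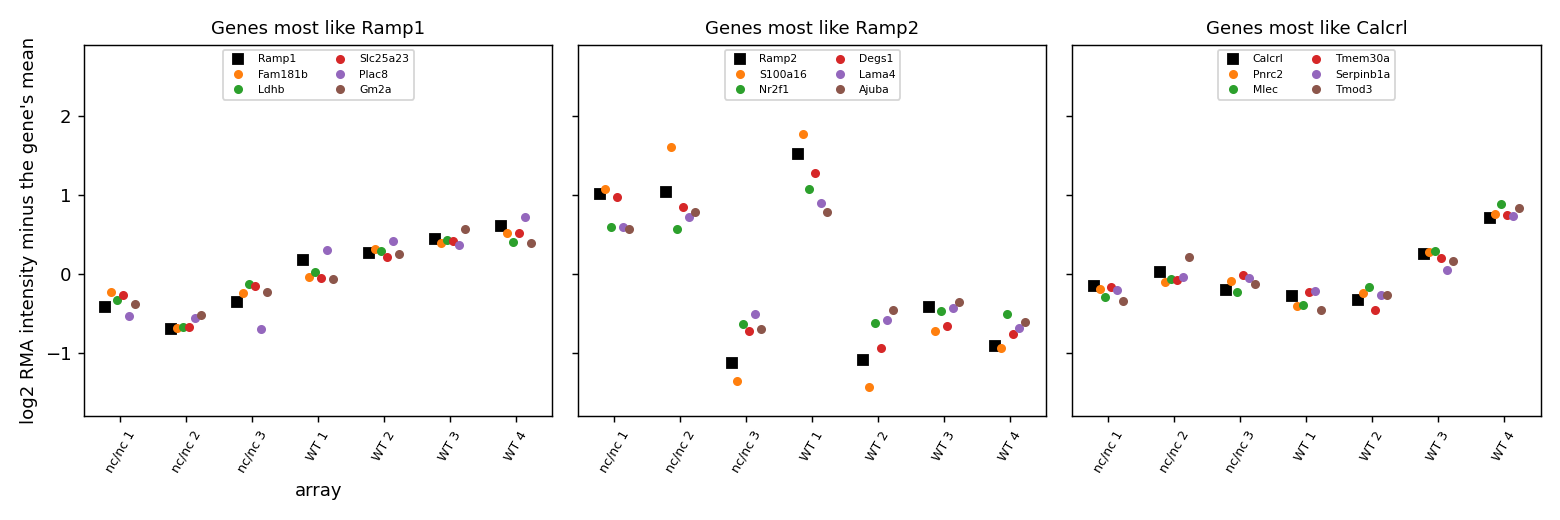
Log2 RMA intensity minus each gene's mean over the 7 arrays (y axis) for Ramp1, Ramp2 and Calcrl (black squares) and the 5 genes most like each (coloured circles), by array (x axis). The genes beside Ramp1 are low in the 3 TFIIA nc/nc arrays, those beside Ramp2 are high in TFIIA nc/nc samples 1 and 2 and wild-type sample 1, and those beside Calcrl are highest in wild-type sample 4.

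Of 63 other genes listed for the pathway, 49 were measured by a probe set naming them alone. In limma over all genes 0 rose and 0 fell in TFIIA nc/nc. At an unadjusted p under 0.05 there were 3, Pde8a, Nsf and Adcy4, against 4.65% of all genes. The groups did not overlap for 3 of the 49, Crcp, Pde8a and Nsf, all higher in TFIIA nc/nc, which is 6.12% against 6.30% of all genes. The median difference was 0.0506, beside −0.00992 over all genes. Neither share stood far from that of all genes.

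Among the ligands, Adm, which encodes adrenomedullin, read 1.96 to 2.41 over the 7 arrays, Calcb, a gene of beta-CGRP, 2.02 to 2.79, and Iapp, the related amylin, 1.87 to 2.36. All 3 were dim and differed by −0.05, −0.18 and −0.03. The remaining ligand genes Calca and Adm2 had no such probe set.

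Among other receptors, Gpr182, a receptor of sinusoidal endothelium once assigned to adrenomedullin, moved with the classes as Ramp2 did. It read 6.67, 6.77 and 6.65 in the arrays with high Lyve1 and 2.95 to 3.27 in the others, 3.58 apart. By genotype it differed by 1.41 (SE 1.09) and did not pass (limma, Benjamini-Hochberg adjusted p = 0.934). Crcp, the receptor component protein that couples Calcrl to its signal, read 6.39, 6.31 and 6.28 in TFIIA nc/nc and 6.02, 6.09, 6.22 and 6.02 in wild type. Its difference of 0.24 (SE 0.13) did not pass at the same adjusted p, although the groups did not overlap. Calcr, the calcitonin receptor that also pairs with RAMPs, was dim at 1.66 to 2.29.

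Downstream of the receptors, Gnas, the stimulatory G protein subunit, read 9.29 to 10.3 over the arrays and differed by −0.27 (SE 0.24). The beta subunits Gnb2 and Gnb1 differed by −0.30 and 0.08. Adcy7, a cyclase of blood cells, read 9.22 to 9.61 and differed by −0.14 (SE 0.14), while Adcy3 and Adcy9 differed by 0.15 and 0.01. Adcy4, at 2.95 ± 0.51 (SD, n = 3) in TFIIA nc/nc against 2.33 ± 0.29 (SD, n = 4), differed by 0.62 (limma, Benjamini-Hochberg adjusted p = 0.934). Of the subunits of protein kinase A, which cyclic AMP activates, Prkar1a, Prkacb, Prkaca and Prkar1b differed by 0.10, −0.26, −0.22 and 0.26. None of these genes passed.

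Of the phosphodiesterases, which degrade cyclic AMP, Pde8a read 4.3001, 4.28 and 4.15 in TFIIA nc/nc and 3.32, 3.77, 3.74 and 3.49 in wild type. The groups did not overlap, and the difference of 0.66 (SE 0.16) did not pass (limma, Benjamini-Hochberg adjusted p = 0.934). Pde4b and Pde7a differed by −0.30 and −0.09. Among genes that cyclic AMP can induce, the phosphatase Dusp1 differed by 0.63 (SE 0.39) and the nuclear receptors Nr4a1 and Nr4a3 by 0.07 and −0.07. Dusp1 read 6.83 to 7.12 in the arrays with high Lyve1 and 5.40 to 6.01 in the others, so it too moved with the classes. The arrestins Arrb2 and Arrb1, which end signalling by such receptors, differed by 0.13 and 0.10. Nsf, a factor of membrane fusion, read 6.66, 6.94 and 6.59 in TFIIA nc/nc and 6.29, 6.30, 6.0004 and 6.56 in wild type, a difference of 0.44 (SE 0.17). The peptidases Ide, Ece1 and Mme differed by 0.11, 0.30 and −0.05. Of the 49 genes, 7 were higher without overlap in the arrays with high Lyve1, which is 14.3% beside 5.55% of all genes. They were Gpr182, Prkar1b, Rapgef3, Fos, Dusp1, Arrb2 and Ece1.

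**Figure D4:**
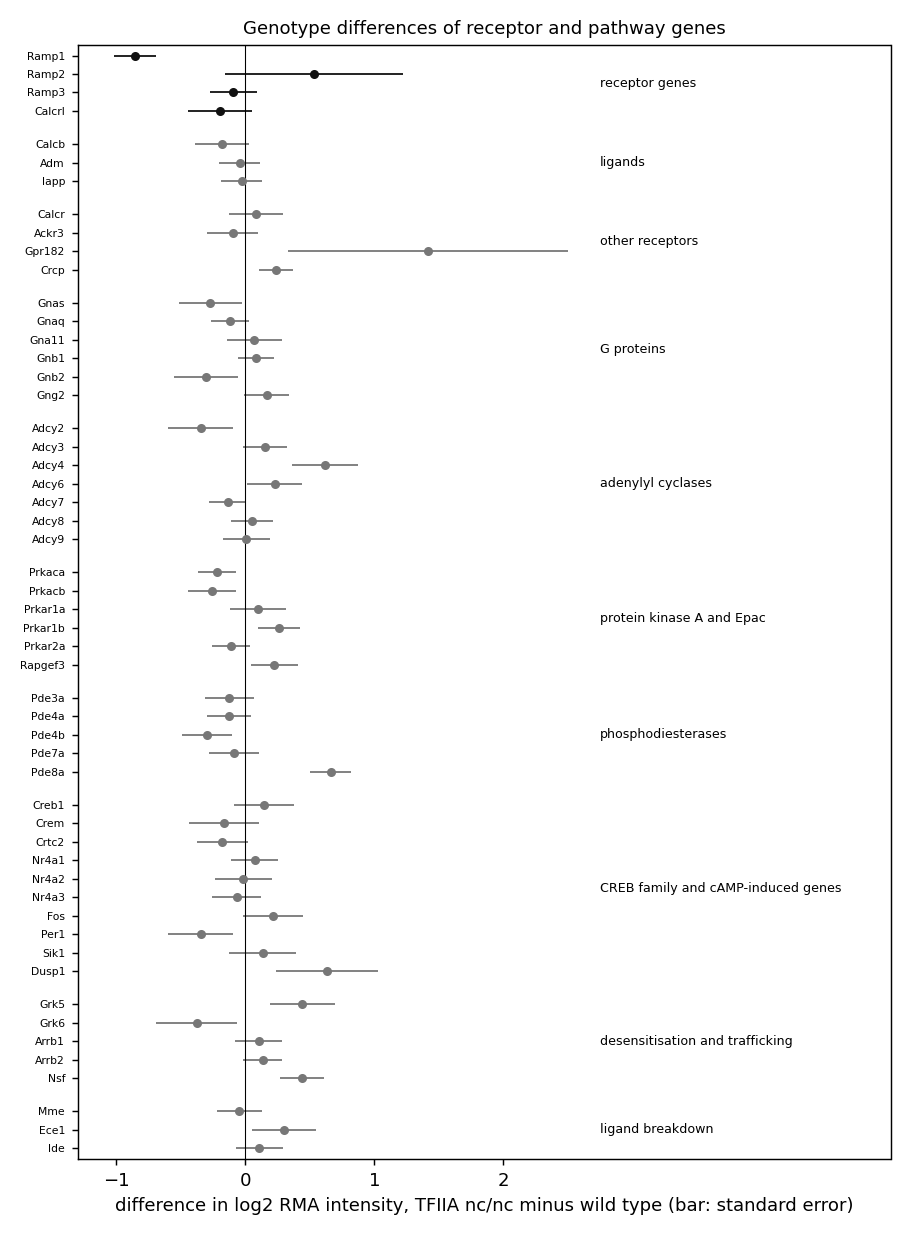
Difference in log2 RMA intensity between TFIIA nc/nc and wild type (x axis, points with standard errors) for the 4 receptor genes (black) and 49 other genes of the pathway (grey), by role (y axis). Ramp1 lies at −0.86; Ramp2 and Gpr182, at 0.53 and 1.41, have the wide errors of genes that follow the Lyve1 classes.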

How the data were processed

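The authors deposited intensity values per probe set, made by RMA with Expression Console of Affymetrix, per the submitters' processing notes. Its version and the scan dates were not given in the sources used here. In general RMA corrects background, equalises the arrays and summarises probes, and it returns a value for unexpressed genes too, which understates differences of dim ones. The values were linear, so log2 was taken with no pseudocount. Of 22690 probe sets 64 controls were left out. Symbols came from the platform annotation, updated by Entrez identifier with RefSeq (GRCm38.p6), which matched 12369 of 12393 genes; 20380 probe sets named 1 gene, 691 several and 1555 none. The brightest probe set stood for each gene. Genotypes were compared with limma 3.58.1 (R 4.3.3; lmFit and eBayes, no covariate), with 2-sided p-values adjusted over 12393 genes. Single values had exact permutation tests over 35 assignments, whose smallest p is 0.0286. The fit was tested on simulated data with independent noise for each gene, which held no shared shift between Lyve1 classes and so does not cover that split. Named genes were the members and the 5 genes most like Ramp1, Ramp2 and Calcrl. Each pathway group added any gene past the threshold, otherwise the 3 of highest mean level and the 1 of smallest p. Adcy6, the genes behind a count and genes that illustrate a list were named after their values were seen. Members, lists and Lyve1 classes were chosen with earlier results of these data known. Alternatives covered the pseudocount, probe set, filters, normalization, moderation, array weights, covariates, the replicate number and leaving out arrays. Plots used matplotlib 3.10.9.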

Additional observations from a re-analysis of the deposited data

Results flagged for a closer look

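Among 58 probe sets checked in the 4 wild-type arrays, 3 had an array far from the others; chance alone flags about 1 in 20 such groups. Lyve1 read 9.73 in wild-type sample 1, with 3.65 the nearest. Gpr182 read 6.65 in the same array, with 3.27 the nearest, and its flag repeats the same split. Adcy6, an adenylyl cyclase, read 3.62 in wild-type sample 3, with 4.31 the nearest.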

How the results depend on the processing

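The Ramp1 difference ranged from −1.01 to −0.752 over 23 alternatives; its sign under left-out arrays is fixed by the choice of the gene and shows no stability. None of Ramp2, Ramp3 and Calcrl passed under any alternative, with adjusted p of 0.317 to 1, the lowest for Calcrl at −0.59 with pooled samples only. Ramp2 turned to −0.402 with the Lyve1 class as a covariate, −0.388 with the endothelial mean without Lyve1 and −0.319 in the arrays with low Lyve1. Ramp3 turned to 0.0946 with pooled samples only and 0.0141 in the arrays with low Lyve1. Leaving out each array gave −0.180 to 0.0426 for Ramp3, positive without wild-type sample 1, and −0.337 to 0.00595 for Calcrl, positive without wild-type sample 4. With the replicate number as a block, where wild-type sample 4 has no partner, Calcrl was 0.00595, Ramp1 −0.781 and Ramp2 0.301, and 1 gene of all passed. Same-numbered samples correlated at 0.382, −0.193 and 0.105 in their deviations, so the numbers were not taken as pairs. By Lyve1 class Ramp2 differed by 1.69 with a pseudocount of 16, and Calcrl by 0.0748 with the mean of its probe sets. Over all genes 0 passed above the median level or at log2 6 on 3 arrays, 3 (Galc, Vcam1, Wdfy1) with pooled samples only, 2 (Galc, Lgmn) with embryo number as a covariate, 2 (Galc, Hbb-y) in the arrays with low Lyve1, and 1 to 3 on leaving out each array, the 3 being without wild-type sample 1. Of the pathway genes 0 passed under all 24 alternatives. Ramp3 gave no value under the filters on dim genes. With 1 TFIIA nc/nc array of low Lyve1, that fit assumes it varies like the wild-type arrays. Estimating the spread over all probe sets was added after seeing the data.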

Other observations

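A further 2 probe sets name Ramp2 together with Vps25, its neighbour in the gene order of GRCm38.p6, and were outside the rule. The set 1428621_a_at read 6.11, 6.71 and 6.73 in TFIIA nc/nc samples 1 to 3 and 6.48, 6.84, 7.75 and 7.44 in wild-type samples 1 to 4. The set 1421051_s_at read 4.58, 5.24 and 5.01 against 4.97, 5.15, 6.05 and 5.71. In the arrays with high Lyve1 the first was lower by −0.76 without overlap and the second by −0.55 with overlap. The set naming Ramp2 alone was 2.07 higher there. By genotype the sets shared with Vps25 overlapped and differed by −0.61 and −0.53, against 0.53 for the set naming Ramp2 alone.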
